A study of Homo sapiens with 18 samples.

Results

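The genes described here are 48 genes of DNA replication and S phase, taken by gene symbol for their known role. The rule that lists them uses no value from these libraries, but the list was drawn up with earlier results of these data known. All 48 were found once among the 60623 genes of the deposited table, and all 48 passed the filter on low values. RNA was sequenced from the human cell line 16D, a line of castration-resistant prostate cancer (CRPC) whose genotype the labels give as WT, kept in RPMI medium with 10% serum. There were 6 groups of 3 libraries: cells given the solvent DMSO, cells given 10 µM enzalutamide for 24, 48, 96 or 144 h, and cells kept in the same dose of enzalutamide beyond 2 months, here the long-term group. Enzalutamide blocks the androgen receptor, the transcription factor on which most prostate cancers depend. All groups are the same single line, and no harvest time is given for DMSO, so the effect of the drug and that of time in culture or of plating cannot be told apart. Nothing in the labels says whether the libraries of a group came from separate cultures, so the p-values measure only the spread between these libraries, which may be technical.

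A cell copies its DNA once per division. In G1 the origin recognition complex, CDC6 and CDT1 load the ring-shaped MCM helicase onto replication origins, and geminin later blocks CDT1 so that no origin is licensed again in the same cycle. In S phase CDC45 and the GINS complex join MCM to form the working helicase, polymerases copy both strands, and the sliding clamp PCNA, placed by replication factor C, holds the polymerases to DNA. Many genes of this machinery are transcribed at the passage from G1 to S by E2F factors, which the retinoblastoma protein family restrains, whereas genes of G2 and mitosis follow another programme that acts through promoter elements called CHR.

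The promoters of the genes are shown first. The choice of genes used no promoter sequence. It did use their known role, and many such genes are transcribed by E2F factors. The share of E2F words is therefore not independent of that choice. RefSeq promoter windows, 250 bases before to 50 bases after the start in GRCh38.p14, were matched by symbol to 40 of the 48 genes. They were searched on both strands for the E2F words TTTCCCGC, TTTCGCGC, TTTGCCGC and TTTGGCGC, which can overlap each other where the sequence is palindromic. Of the 40 promoters, 21 held such a word (52.5%), against 3.33% of all 27305 promoters in the same table and 5.49% of the 10321 matched to genes tested here. On a further list of 47 replication genes, the most similar list, the share was 27.0% (10 of 37 promoters). In 18 of these 21 a match began between 70 bases before and 22 bases after the start. The following stretches of 100 bases run from 70 bases before to 30 bases after the start, on the strand of the gene, with every E2F word in capitals. They were chosen from genes that hold a word and are described in full below or belong to the MCM ring. RFC3, which also holds a word and is described below, is not printed. GMNN, TK1, CCNE1, CHAF1A, ORC6, CDC45, PRIM1 and SLBP are also described in full and hold none of the words. MCM5, CCNE2 and ATAD2, also described in full, had no matched promoter and were not searched. The same holds for MCM4, GINS4, POLD3, DSCC1 and RPA2.
CDC6, chr17:40287809-40287908, plus strand: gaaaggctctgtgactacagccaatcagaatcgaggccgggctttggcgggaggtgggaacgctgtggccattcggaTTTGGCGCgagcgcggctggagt
CDT1, chr16:88803719-88803818, plus strand: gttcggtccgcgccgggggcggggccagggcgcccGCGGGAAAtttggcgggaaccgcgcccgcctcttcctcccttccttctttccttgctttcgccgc
MCM2, chr3:127598341-127598440, plus strand: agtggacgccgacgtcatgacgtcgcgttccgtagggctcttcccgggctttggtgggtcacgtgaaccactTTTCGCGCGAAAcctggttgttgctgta
MCM3, chr6:52284713-52284812, minus strand: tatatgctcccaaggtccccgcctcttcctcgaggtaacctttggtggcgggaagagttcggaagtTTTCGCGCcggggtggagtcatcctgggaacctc
MCM7, chr7:100101368-100101467, minus strand: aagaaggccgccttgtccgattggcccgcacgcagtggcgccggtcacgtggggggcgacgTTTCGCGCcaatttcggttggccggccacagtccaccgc
E2F1, chr20:33686356-33686455, minus strand: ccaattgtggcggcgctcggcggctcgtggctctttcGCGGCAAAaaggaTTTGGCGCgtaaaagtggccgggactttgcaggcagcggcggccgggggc
PCNA, chr20:5126593-5126692, minus strand: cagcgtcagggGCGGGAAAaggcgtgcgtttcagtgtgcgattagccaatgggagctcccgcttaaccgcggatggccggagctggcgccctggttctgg
TYMS, chr18:657583-657682, plus strand: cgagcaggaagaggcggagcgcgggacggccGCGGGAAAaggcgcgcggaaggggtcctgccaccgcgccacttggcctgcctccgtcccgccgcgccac
UHRF1, chr19:4909431-4909530, plus strand: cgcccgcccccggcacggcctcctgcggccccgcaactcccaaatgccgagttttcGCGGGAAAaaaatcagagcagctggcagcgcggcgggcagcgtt
CLSPN, chr1:35769949-35770048, minus strand: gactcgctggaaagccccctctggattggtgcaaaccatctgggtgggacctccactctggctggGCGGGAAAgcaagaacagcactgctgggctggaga
MSH6, chr2:47783075-47783174, plus strand: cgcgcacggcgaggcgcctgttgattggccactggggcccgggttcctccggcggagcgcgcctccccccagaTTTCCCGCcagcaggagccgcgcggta

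In CDC6, MCM3, MCM7 and MSH6 the word reads forwards, in MCM2 it reads forwards and, overlapping, on the other strand, in CDT1, PCNA, TYMS, UHRF1 and CLSPN it reads on the other strand, and E2F1 itself holds 1 of each. MCM6 had its words farther upstream, and its stretch is given for 160 to 61 bases before the start.
MCM6, chr2:135876504-135876603, minus strand: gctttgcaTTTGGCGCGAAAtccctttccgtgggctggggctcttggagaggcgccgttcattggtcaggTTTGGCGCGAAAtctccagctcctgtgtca

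RRM2 and FEN1, which are among the genes with the largest differences below, held none of these words in the whole window. Their stretches, in the same frame as the first set, are printed for contrast.
RRM2, chr2:10122669-10122768, plus strand: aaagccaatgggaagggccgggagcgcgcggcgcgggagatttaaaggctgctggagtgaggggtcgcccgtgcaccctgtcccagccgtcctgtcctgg
FEN1, chr11:61792841-61792940, plus strand: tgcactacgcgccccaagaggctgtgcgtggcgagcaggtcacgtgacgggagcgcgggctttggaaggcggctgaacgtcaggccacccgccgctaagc

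A match describes letters and is not a measured binding site, and the absence of a match says only that these letters are not in this window. Of the 40 promoters, 23 held the letters CCAAT (57.5%, against 35.7% of all promoters and 37.1% of those of genes tested) and 1 held the CHR word TTTGAA (2.50%, against 15.4% and 9.001%). The further replication genes had these in 21 and 2 of 37 promoters. Of 29 promoters matched for a list of 35 G2 and mitosis genes, 3 held an E2F word (10.3%), 21 held CCAAT (72.4%) and 20 held the CHR word (69.0%).

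**Figure D1:**
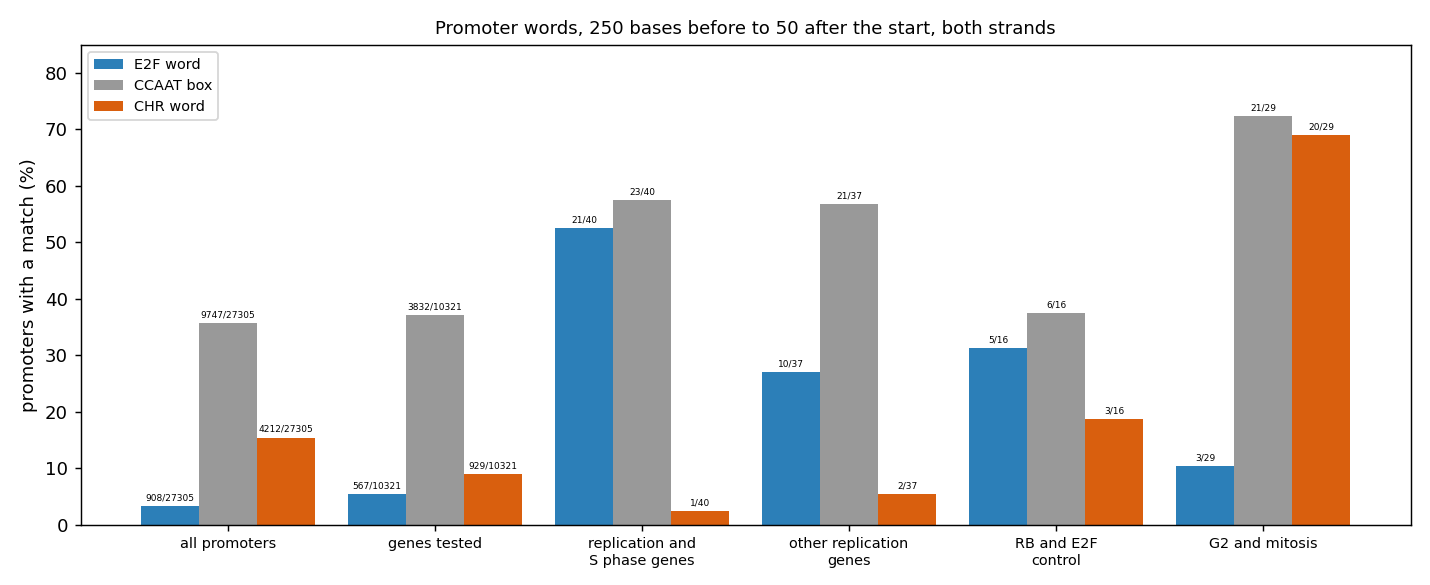
Share of promoters (vertical axis, percent) with an E2F word, a CCAAT box or a CHR word, for all promoters in the table, those of genes tested, the replication and S phase genes, the further replication genes, a list of RB and E2F control genes and the G2 and mitosis genes; numbers above the bars are promoters with a match over promoters found. The replication and S phase genes have the E2F word in 21 of 40 promoters and the CHR word in 1, the further replication genes in 10 and 2 of 37, while the G2 and mitosis genes have them in 3 and 20 of 29.

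The deposited values are TPM (a share of all transcripts, corrected for gene length), so levels may be compared between genes, and the read depth of a library is unknown. KLK3, the androgen-driven gene of prostate-specific antigen, was used to check the drug. Its level was 989 to 1038 TPM in DMSO, 308 to 321 at 24 h, 32.3 to 36.2 at 144 h and 131 to 156 long-term. Of 6 luminal prostate markers all 6 passed the filter, while leukocyte markers passed in 0 of 6 cases, with a highest value of 0.83 TPM, and the fibroblast list in 1 of 6, COL1A1. COL1A1, a collagen gene, measured 14.5 ± 0.93 TPM in DMSO, 25.9 ± 5.79 at 96 h, 29.4 ± 8.40 at 144 h and 7.25 ± 1.09 long-term (SD, n = 3). It was called higher at 96 h and 144 h and lower long-term (0.78, 0.94 and -0.92), and its part in the results below was not tested. The 37 mitochondrially encoded genes took 19.4% ± 1.49 of all TPM in DMSO (SD, n = 3) and 26.4% ± 3.91 long-term, where the libraries ran from 22.01% to 29.5%. At 96 h they ran from 15.1% to 24.0%. Because TPM are shares, a higher mitochondrial share lowers the values of other genes. In DMSO, the reference of 5 comparisons, replicate 2 had the lowest mitochondrial share (17.7%) and the highest value of its group for 36 of the 48 genes, while replicate 3 had the highest share (20.6%) and the lowest value for 36. The 96 h library with the highest mitochondrial share had the lowest value of its group for 42 of the 48 genes, and the long-term library with the lowest share had the highest value for 41. At 144 h, replicate 2, with the highest share (22.5%), had the lowest value for 32. At 24 h and 48 h the shares lay within 18.3% to 20.5%.

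Exons of 16 of the 48 genes overlap those of another expressed gene in GENCODE 29. The libraries were strand-specific and read in single reads of 50 bases, but how strand was treated in counting is not given in the sources used here. Values of these genes are therefore uncertain to the extent that reads were shared. They include PRIM1, which overlaps the very abundant NACA on the same strand, FEN1 (FADS2 on the same strand, TMEM258 on the other), and TYMS, MSH6, RFC4, CCNE2, CHAF1A, MCM2 and MCM7, which overlap a gene on the other strand. Named pseudogenes of 7 genes reached at most 0.72 TPM.

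More of the 48 genes were called lower in each later enzalutamide group, from 6 at 24 h to 47 long-term, and none was called higher against DMSO. A gene is called here when limma's moderated test gives an adjusted p under 0.05 over all 16169 genes tested. At 24 h, 6 of 48 genes were called lower, where the background over all genes tested was 3.58%, and 0 were called higher (background 4.59%). At 48 h, 18 were lower (8.08%) and 0 higher (9.38%). At 96 h, 37 were lower (12.7%) and 0 higher (16.5%). At 144 h, 46 were lower (16.4%) and 0 higher (26.6%). Long-term, 47 were lower (33.9%) and 0 higher (18.1%). These 5 comparisons share the same 3 DMSO libraries, so they are not independent of each other.

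The median log2 fold change of the 48 genes against DMSO was -0.17 at 24 h, -0.23 at 48 h, -0.38 at 96 h, -0.53 at 144 h and -0.78 long-term. Over all genes tested it was 0.02, 0.00, 0.02, 0.07 and -0.12. In linear terms, the median gene stood at 88.4%, 84.9%, 76.8%, 67.7% and 57.5% of its DMSO mean. The DMSO mean was the highest of the 6 groups for 44 of the 48 genes, and MCM6, TK1, CCNE2 and CHAF1A were the exceptions. The mean fell at each step from DMSO through 144 h for 28 genes, and for 24 of the 48 it also fell from 144 h to long-term. The summed level of all 48 genes went from 3721 ± 180 TPM in DMSO (SD, n = 3) to 2556 ± 104 at 144 h and 2156 ± 187 long-term. In RNA from whole cultures, fewer cells in S phase and less RNA of these genes per cell cannot be told apart.

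**Figure D2:**
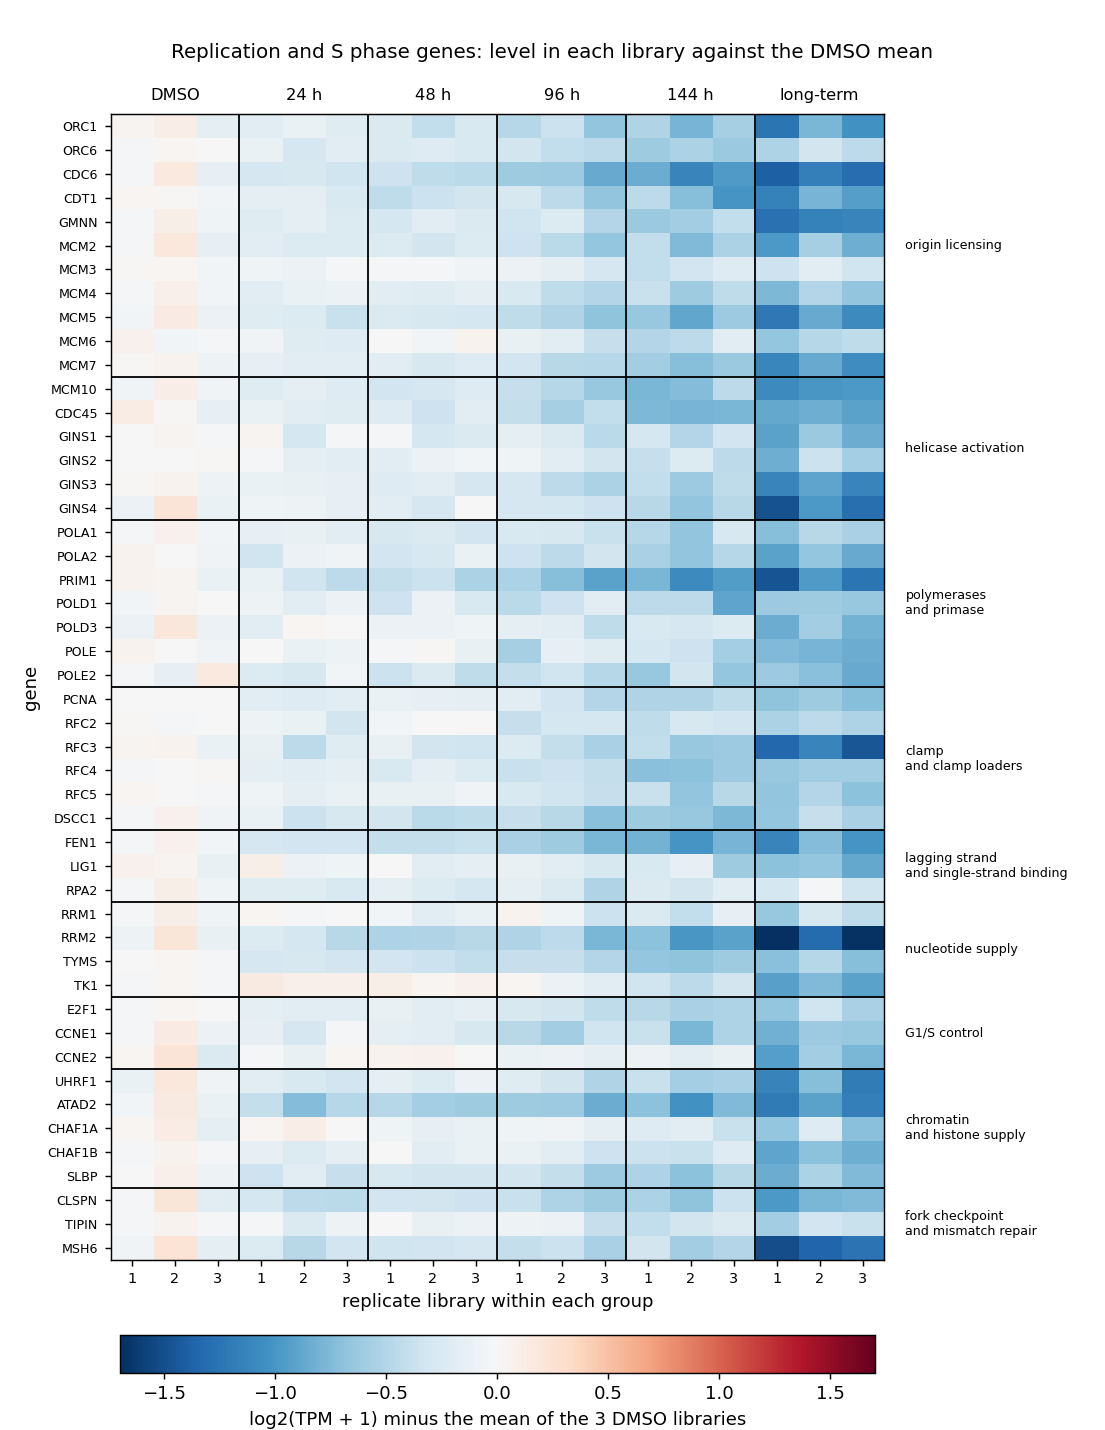
Each row is 1 of the 48 genes, grouped by role, and each column 1 of the 18 libraries; colour shows log2(TPM + 1) minus the mean of the 3 DMSO libraries, with blue for lower. Blue deepens from 24 h to long-term in most rows, while TK1 is above DMSO in all 24 h and 48 h libraries and CCNE2 stays near DMSO through 144 h.

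The later steps could also be tested without DMSO. Between 24 h and 144 h, 34 of 48 genes fell (background 11.1%) and 0 rose (18.6%), with a median of -0.35 against 0.06 over all genes. The largest falls were those of CDC6 (-0.68 ± 0.09, standard error), PRIM1 (-0.63 ± 0.13) and CDC45 (-0.61 ± 0.07). The count at 24 h against DMSO was the least firm. It was 3 without replicate 1 or without replicate 2 of 24 h, and 2 without replicate 3 of 24 h, DMSO replicate 1 or DMSO replicate 2. At 48 h it was 10 without replicate 1 or replicate 2 of 48 h, 8 without replicate 3 of 48 h or DMSO replicate 1, and 7 without DMSO replicate 2. Over all genes tested, leaving out a library also lowered the count, from 579 to between 399 and 492 at 24 h. At 48 h it went from 1306 to between 843 and 1128. At 24 h only ATAD2 and TYMS kept their call in all 15 alternatives, which include leaving out each library. At 48 h these were ATAD2, CDC6, DSCC1, FEN1, RFC4 and TYMS. The corresponding counts were 29 genes at 96 h, 42 at 144 h and 46 long-term.

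Among the 11 licensing genes, none was called at 24 h, 5 were lower at 48 h, 10 at 96 h, and all 11 at 144 h and long-term. CDC6, the ATPase that helps load MCM (chr17:40287633-40304657, plus strand, GRCh38), measured 94.1, 108 and 87.6 TPM in the DMSO libraries, 78.98, 79.7 and 75.96 at 24 h, 75.3, 70.9 and 69.8 at 48 h, 62.8, 62.4 and 52.5 at 96 h, 52.99, 43.6 and 48.8 at 144 h and 36.1, 42.7 and 38.7 long-term. Its treated libraries all lay below the DMSO libraries, and those of 144 h and long-term also lay below every 96 h library except for the highest at 144 h. The log2 fold change was -0.41 ± 0.09 at 48 h (adjusted p = 0.00467), -0.98 ± 0.09 at 144 h (adjusted p = 3.19e-07) and -1.28 ± 0.09 long-term (adjusted p = 7.09e-09). That of 144 h was the largest of all 48 genes.

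CDT1, the loader that works with CDC6, measured 55.8, 55.6 and 52.8 TPM in the DMSO libraries, 48.8, 49.2 and 45.6 at 24 h, 40.1, 42.1 and 43.9 at 48 h, 44.9, 39.7 and 34.04 at 96 h, 39.7, 32.8 and 26.8 at 144 h and 24.2, 31.3 and 28.00 long-term. No treated library reached the DMSO range, and the 144 h libraries were spread from 26.8 to 39.7 TPM. Its change was -0.73 ± 0.12 at 144 h and -0.96 ± 0.12 long-term (adjusted p = 1.58e-04 and 6.03e-06). GMNN, which encodes geminin, the inhibitor of CDT1, measured 46.5, 50.5 and 44.8 TPM in the DMSO libraries, 40.7, 42.5 and 40.1 at 24 h, 38.2, 41.4 and 39.5 at 48 h, 37.3, 40.1 and 33.3 at 96 h, 30.03, 30.98 and 35.2 at 144 h and 19.1, 20.8 and 21.1 long-term. The long-term libraries formed a group of their own, below every other library. GMNN changed by -0.55 ± 0.08 at 144 h and -1.18 ± 0.08 long-term (adjusted p = 2.69e-05 and 2.38e-09), so that its long-term mean was 43.0% of DMSO.

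MCM2 and MCM5, subunits of the helicase ring, followed a similar course. MCM2 measured 130.1, 151 and 120.5 TPM in the DMSO libraries, 118, 114 and 113 at 24 h, 113, 107 and 113 at 48 h, 104, 97.04 and 84.4 at 96 h, 99.9, 78.6 and 91.5 at 144 h and 67.1, 90.1 and 74.4 long-term. Its long-term libraries overlapped those of 144 h, and both groups lay below DMSO. MCM5 measured 109, 124 and 105 TPM in the DMSO libraries, 97.1, 95.7 and 86.3 at 24 h, 94.9, 92.9 and 90.95 at 48 h, 83.1, 78.6 and 69.99 at 96 h, 71.7, 60.4 and 72.9 at 144 h and 47.96, 61.7 and 52.6 long-term. It changed by -0.72 ± 0.10 at 144 h and -1.05 ± 0.10 long-term (adjusted p = 1.83e-05 and 1.52e-07), against -0.57 ± 0.11 and -0.79 ± 0.11 for MCM2 (adjusted p = 5.76e-04 and 1.65e-05).

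The 6 ring subunits did not change by the same amount, although they act in 1 ring. Long-term MCM5 and MCM7 (-1.01 ± 0.07) changed most and MCM3 least (-0.30 ± 0.06). MCM6 was level with DMSO at 48 h (62.6 ± 2.41 TPM against 62.5 ± 2.74, SD, n = 3). The sum of the 6 subunits was 900.0 TPM in DMSO, 618 at 144 h and 532 long-term, and the most abundant subunit stood 4.19 times above the least abundant in DMSO and 3.50 times long-term. Whether the subunits differed in their change was not tested.

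The origin recognition subunits ORC1 and ORC6 were both lower at 144 h (-0.62 ± 0.12 and -0.59 ± 0.06). ORC6 measured 55.6, 57.9 and 56.6 TPM in the DMSO libraries, 52.1, 46.3 and 50.03 at 24 h, 47.6, 48.7 and 47.05 at 48 h, 45.6, 42.02 and 41.3 at 96 h, 37.02, 38.8 and 36.2 at 144 h and 39.3, 45.4 and 41.3 long-term. It was the only gene of the 48 called higher long-term against 144 h, at 0.16 ± 0.06 (adjusted p = 0.0463), and that call was lost in 8 alternatives, including those without long-term replicate 2 or 3 or without 144 h replicate 1 or 3.

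Of the 6 genes of helicase activation, none was called at 24 h, 2 were lower at 48 h, 3 at 96 h, and all 6 at 144 h and long-term. CDC45, the helicase cofactor, measured 45.9, 42.6 and 38.2 TPM in the DMSO libraries, 38.96, 37.1 and 36.2 at 24 h, 36.1, 32.9 and 37.1 at 48 h, 31.5, 28.2 and 31.4 at 96 h, 24.4, 23.9 and 24.2 at 144 h and 22.5, 23.4 and 21.9 long-term. The 144 h libraries lay close to each other and below all earlier ones. It changed by -0.78 ± 0.07 at 144 h (adjusted p = 2.44e-07) and -0.87 ± 0.07 long-term, with little between these groups (-0.09 ± 0.07, adjusted p = 0.298). MCM10, an origin firing factor, reached -1.02 long-term. The 4 GINS genes, which encode 1 complex in equal parts, changed by -0.59 (GINS2) to -1.24 (GINS4) long-term. Their summed level was 96.0 TPM in DMSO and 49.9 long-term.

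Of the 7 polymerase and primase genes, 2 were lower at 48 h, 6 at 96 h, and all 7 at 144 h and long-term. PRIM1, the catalytic subunit of the primase that starts each new strand, measured 50.7, 50.5 and 45.03 TPM in the DMSO libraries, 44.8, 38.1 and 35.6 at 24 h, 36.4, 37.5 and 33.4 at 48 h, 33.3, 29.2 and 25.4 at 96 h, 27.9, 22.6 and 24.8 at 144 h and 17.03, 24.5 and 20.1 long-term. Its level was lower in every treated library than in any DMSO library, with the reservation on shared reads with NACA given above. The change was -0.72 ± 0.13 at 96 h, the largest of the 48 genes there, -0.93 ± 0.13 at 144 h and -1.22 ± 0.13 long-term (adjusted p = 3.77e-04, 1.63e-05 and 5.17e-07). The other 6, catalytic and accessory subunits of the polymerases alpha, delta and epsilon, lay between -0.26 (POLD3) and -0.59 (POLD1) at 144 h (the POLD3 call was lost without any 1 of the 144 h libraries or DMSO replicate 2) and between -0.58 (POLA1) and -0.81 (POLA2) long-term.

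Of the 6 clamp and clamp loader genes, 1 was lower at 24 h, 2 at 48 h, and all 6 at 96 h, 144 h and long-term. PCNA, the clamp itself (chr20:5114953-5126626, minus strand, GRCh38), was the most abundant of the 48 genes in DMSO and measured 312, 316 and 312 TPM in the DMSO libraries, 277, 270.3 and 276 at 24 h, 289.9, 284 and 280.4 at 48 h, 275, 249 and 223 at 96 h, 219, 219 and 233 at 144 h and 195, 207 and 189 long-term. DMSO libraries stood above all others, and the 96 h libraries were the most spread. It changed by -0.34 ± 0.06 at 96 h, -0.49 ± 0.06 at 144 h and -0.67 ± 0.06 long-term (adjusted p = 5.52e-04, 8.09e-06 and 1.36e-07). RFC3, a small subunit of the clamp loader, measured 58.03, 58.6 and 51.9 TPM in the DMSO libraries, 51.5, 40.8 and 48.4 at 24 h, 51.3, 45.1 and 44.3 at 48 h, 47.4, 42.1 and 37.8 at 96 h, 41.8, 35.6 and 36.2 at 144 h and 21.5, 25.2 and 19.8 long-term. All long-term libraries were below all 144 h libraries, and the change between them was -0.75 ± 0.11 (adjusted p = 3.83e-05). RFC4, its partner subunit, changed by -0.68 ± 0.05 at 144 h and stood at 0.06 ± 0.05 from there to long-term (adjusted p = 0.266). RFC2 was 2.25 times as abundant as RFC3 in DMSO and 4.01 times long-term.

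Of the 3 genes of lagging strand synthesis and single-strand binding, FEN1 changed most. FEN1, the nuclease that trims RNA primers from Okazaki fragments (chr11:61792637-61797244, plus strand, GRCh38), measured 95.97, 104 and 95.6 TPM in the DMSO libraries, 80.6, 78.3 and 78.2 at 24 h, 73.9, 73.9 and 75.7 at 48 h, 67.01, 64.2 and 56.9 at 96 h, 55.7, 48.4 and 56.6 at 144 h and 44.5, 58.8 and 48.4 long-term. It was below DMSO in every treated library. The change was -0.40 ± 0.09 at 48 h, -0.87 ± 0.09 at 144 h and -0.95 ± 0.09 long-term (adjusted p = 0.00506, 8.56e-07 and 1.62e-07). LIG1, the ligase that joins the fragments, was lower at 144 h (-0.33) and long-term (-0.74), and its 144 h call was lost without 144 h replicate 3, DMSO replicate 1 or DMSO replicate 2. RPA2, a subunit of the single-strand binding protein, was the single gene not called long-term (-0.22 ± 0.09, adjusted p = 0.0557). It was called lower there without long-term replicate 2, with a minimum of 5 TPM and with the replicate number as a block.

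The 4 genes of nucleotide supply were all called lower at 144 h and long-term, and differences between their courses were not tested. RRM2, the regulated subunit of ribonucleotide reductase, which makes deoxynucleotides (chr2:10120698-10131419, plus strand, GRCh38), measured 172, 211 and 168 TPM in the DMSO libraries, 155, 148 and 132 at 24 h, 127, 128 and 132 at 48 h, 128, 134 and 106 at 96 h, 112, 91.5 and 96.9 at 144 h and 51.5, 72.9 and 56.3 long-term. It had the largest change of the 48 genes long-term, -1.60 ± 0.12 (adjusted p = 1.82e-08), at 32.8% of the DMSO mean, and had changed by -0.87 ± 0.12 at 144 h (adjusted p = 3.20e-05). RRM1, the other subunit of the enzyme, changed by -0.27 ± 0.10 at 144 h (adjusted p = 0.0498, lost in 10 alternatives, among them those without 144 h replicate 1 or 2 or any 1 DMSO library) and -0.45 ± 0.10 long-term (adjusted p = 0.00174).

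TYMS, thymidylate synthase (chr18:657604-673578, plus strand, GRCh38), was among the first to be lower. It measured 128, 131 and 127 TPM in the DMSO libraries, 105, 107 and 102 at 24 h, 102, 99.7 and 95.8 at 48 h, 97.8, 98.2 and 90.5 at 96 h, 81.6, 79.96 and 84.2 at 144 h and 78.6, 91.6 and 77.3 long-term. Every treated library lay below every DMSO library from 24 h on, and long-term libraries spanned those of 144 h. The change was -0.29 ± 0.06 at 24 h, -0.65 ± 0.06 at 144 h and -0.64 ± 0.06 long-term (adjusted p = 0.00518, 3.24e-07 and 2.04e-07).

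TK1, the thymidine kinase of the salvage pathway, went the other way at first, without passing the test. It measured 218, 226 and 219 TPM in the DMSO libraries, 246, 236 and 235 at 24 h, 238, 227 and 232 at 48 h, 225, 207 and 196 at 96 h, 174, 162 and 178 at 144 h and 117, 130.3 and 117 long-term. All 24 h and 48 h libraries were above all DMSO libraries, by 0.11 ± 0.06 at 24 h (adjusted p = 0.306) and 0.07 ± 0.06 at 48 h (adjusted p = 0.469). TK1 was called higher at 24 h under quantile normalization and after rescaling without mitochondrially encoded genes, and at 48 h under quantile normalization. By 144 h it was lower (-0.37 ± 0.06, adjusted p = 1.02e-04), and long-term lower still (-0.86 ± 0.06, adjusted p = 4.17e-09).

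**Figure D3:**
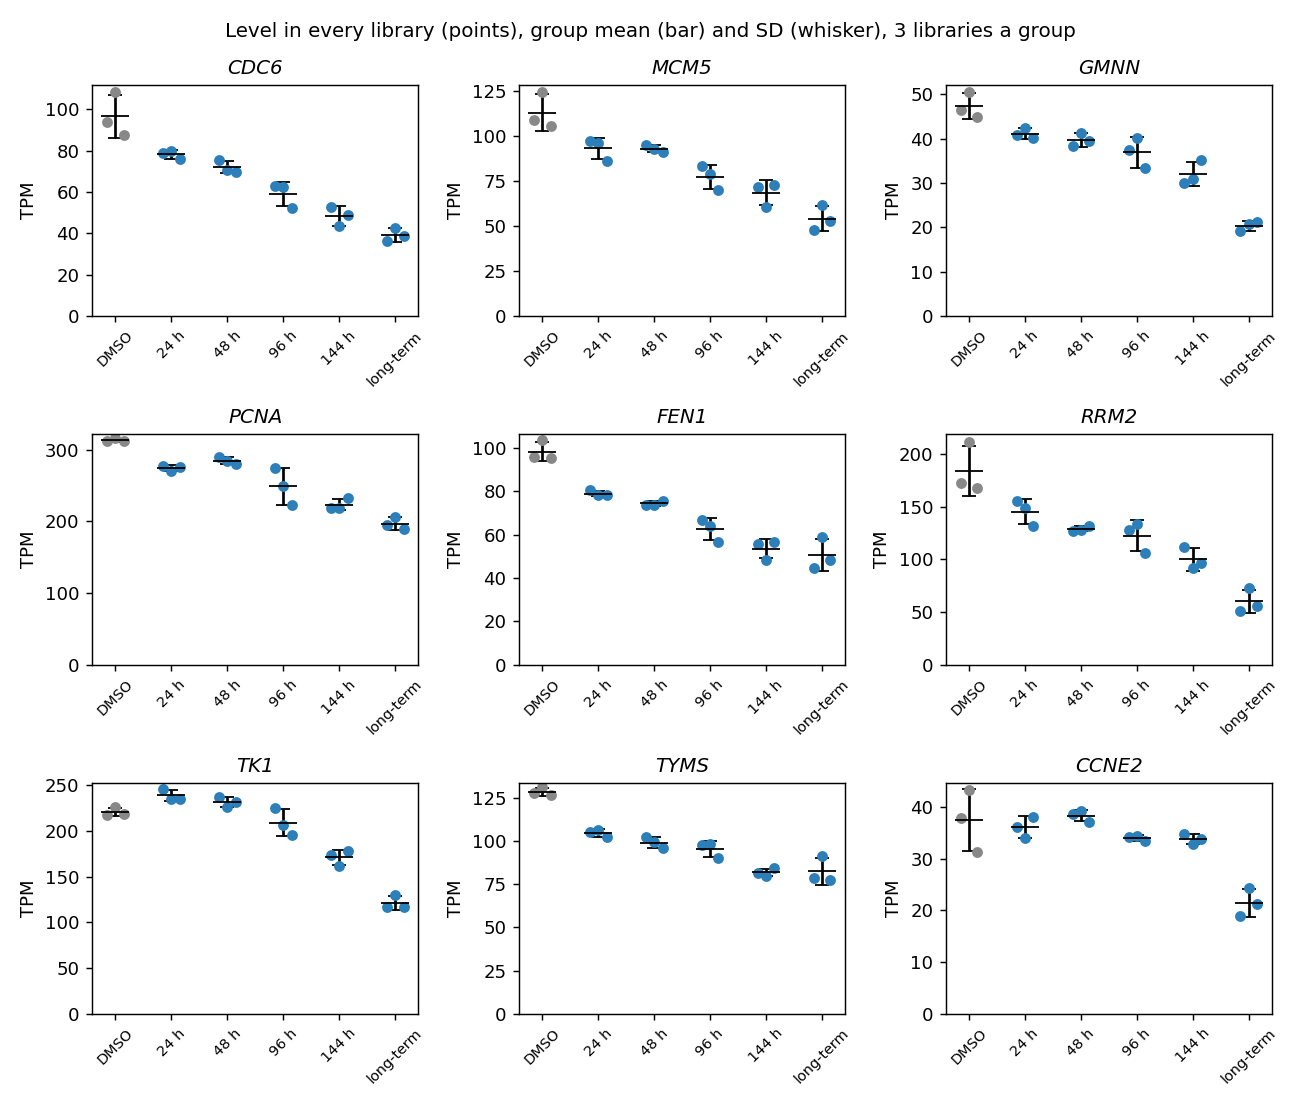
TPM (vertical axis, from 0) of 9 genes in every library by group; points are libraries, bars group means and whiskers SD (n = 3). The means of CDC6, MCM5 and FEN1 descend from group to group. The step is slight for MCM5 from 24 h to 48 h (93.03 and 92.92 TPM) and for FEN1 from 144 h to long-term (53.55 and 50.57 TPM). TK1 starts above DMSO, and CCNE2 drops long-term to 57.3% of its DMSO mean.

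Of the 3 genes of G1/S control, none was called at 24 h or 48 h. E2F1, an activating E2F factor, measured 64.2, 66.7 and 64.7 TPM in the DMSO libraries, 57.9, 56.8 and 57.6 at 24 h, 59.8, 57.7 and 58.01 at 48 h, 53.97, 52.3 and 48.1 at 96 h, 46.9, 44.02 and 45.1 at 144 h and 41.00, 51.2 and 44.01 long-term. Its treated libraries were all below DMSO, with a change of -0.52 ± 0.07 at 144 h and -0.52 ± 0.07 long-term (adjusted p = 1.48e-05 and 8.47e-06). The cyclin E genes, whose products activate CDK2 at the start of S phase, were first called lower in different groups. CCNE1 measured 26.6, 30.01 and 25.2 TPM in the DMSO libraries, 24.6, 22.2 and 26.6 at 24 h, 24.2, 23.9 and 22.4 at 48 h, 19.4, 17.6 and 21.2 at 96 h, 20.6, 15.5 and 18.6 at 144 h and 14.98, 17.4 and 17.1 long-term. From 48 h on all its libraries were below DMSO, and it was called from 96 h on (-0.47 ± 0.10 at 96 h, adjusted p = 0.00267, and -0.69 ± 0.10 long-term, adjusted p = 3.31e-05). CCNE2 measured 37.9, 43.2 and 31.2 TPM in the DMSO libraries, 36.2, 34.04 and 38.1 at 24 h, 38.6, 39.3 and 37.1 at 48 h, 34.2, 34.5 and 33.3 at 96 h, 34.7, 32.8 and 33.9 at 144 h and 18.9, 24.3 and 21.2 long-term. It overlapped DMSO in each group through 144 h (-0.13 ± 0.10, adjusted p = 0.297), where DMSO itself ran from 31.2 to 43.2 TPM, and only the long-term libraries lay below (-0.77 ± 0.10, adjusted p = 6.42e-06). Without DMSO replicate 3, the lowest of its group, CCNE2 was called lower at 144 h. It was also called lower there with median-of-ratios scaling and with quantile normalization, as were all 48 genes. A test of the difference between the cyclins was not run.

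Of the 5 chromatin and histone supply genes, 2 were lower at 24 h, 2 at 48 h, 4 at 96 h and 144 h, and all 5 long-term. ATAD2, a bromodomain protein bound to newly replicated chromatin, had the largest change at 24 h. It measured 57.7, 66.1 and 54.95 TPM in the DMSO libraries, 44.7, 35.1 and 42.1 at 24 h, 42.1, 39.4 and 38.9 at 48 h, 38.6, 38.4 and 32.7 at 96 h, 36.3, 28.7 and 34.9 at 144 h and 25.3, 31.3 and 25.9 long-term. Treated and DMSO libraries did not overlap, and the change was -0.54 ± 0.11 at 24 h, -0.82 ± 0.11 at 144 h and -1.09 ± 0.11 long-term (adjusted p = 0.00509, 1.89e-05 and 5.35e-07). Between 24 h and 144 h it changed by -0.28 ± 0.11 (adjusted p = 0.0708).

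UHRF1, which guides maintenance DNA methylation behind the fork, measured 14.4, 17.7 and 14.8 TPM in the DMSO libraries, 13.6, 12.9 and 12.3 at 24 h, 13.97, 13.1 and 14.5 at 48 h, 13.4, 12.4 and 10.6 at 96 h, 11.7, 10.2 and 10.4 at 144 h and 6.52, 9.06 and 6.29 long-term. Its 48 h libraries overlapped DMSO in part and the long-term ones lay below all others, at -1.02 ± 0.12 (adjusted p = 2.25e-06). CHAF1A and CHAF1B encode subunits of the histone chaperone CAF-1. CHAF1A measured 54.9, 58.8 and 48.2 TPM in the DMSO libraries, 55.05, 58.4 and 54.1 at 24 h, 51.1, 48.8 and 49.6 at 48 h, 50.9, 51.5 and 47.6 at 96 h, 46.2, 46.9 and 41.2 at 144 h and 33.8, 46.03 and 32.6 long-term. It overlapped DMSO at 24, 48 and 96 h, missed the threshold at 144 h (-0.26 ± 0.10, adjusted p = 0.0524) and was lower long-term (-0.53 ± 0.10, adjusted p = 4.67e-04). With median-of-ratios scaling and with quantile normalization CHAF1A was called lower at 144 h. CHAF1B was lower at both (-0.32 and -0.81). SLBP, which binds the stem-loop of histone messages, measured 145, 155 and 138 TPM in the DMSO libraries, 114, 128 and 111 at 24 h, 121, 117 and 118 at 48 h, 117, 109.8 and 94.6 at 96 h, 102, 89.4 and 105 at 144 h and 81.2, 101 and 86.1 long-term. It was called lower from 24 h (-0.31 ± 0.09, adjusted p = 0.0457) to long-term (-0.71 ± 0.09), but the 24 h call was lost without any 1 of 24 h replicates 1 and 3 and the DMSO libraries.

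The last 3 genes act at stalled forks or correct mispaired bases. CLSPN, which encodes claspin, the adaptor that activates the checkpoint kinase CHK1, measured 15.03, 17.7 and 13.2 TPM in the DMSO libraries, 12.2, 10.9 and 10.8 at 24 h, 11.9, 12.1 and 11.7 at 48 h, 11.4, 10.3 and 9.62 at 96 h, 10.2, 9.12 and 11.6 at 144 h and 7.21, 8.47 and 8.63 long-term. Every treated library was below DMSO (-0.40 ± 0.11 at 24 h, adjusted p = 0.0267, and -0.84 ± 0.11 long-term, adjusted p = 6.02e-06). The 24 h call of CLSPN was lost without 24 h replicate 2 or 3 or DMSO replicate 1 or 2. TIPIN, a fork protection protein, was lower at 144 h (-0.33) and long-term (-0.43). MSH6, a mismatch recognition protein, measured 55.1, 68.2 and 51.2 TPM in the DMSO libraries, 49.1, 41.3 and 45.8 at 24 h, 45.4, 45.96 and 47.2 at 48 h, 43.3, 44.6 and 38.96 at 96 h, 46.1, 38.1 and 40.6 at 144 h and 19.8, 22.2 and 23.6 long-term. Its level was nearly level from 24 h through 144 h and dropped to a separate range long-term, by -0.90 ± 0.10 against 144 h (adjusted p = 3.25e-06).

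At the step from 144 h to long-term, 24 of 48 genes were called lower (background 36.8%) and 1 higher (background 9.23%). The median was -0.24, against -0.19 over all genes. Many genes outside the list were also lower here, and the count by itself says little about the 48. MSH6 (-0.90), RFC3 (-0.75) and RRM2 (-0.74) changed most. After median-of-ratios scaling, which brought the median of all genes to 0.00, the median of the 48 genes was -0.02, with 13 lower and 8 higher. Of all 16169 genes tested, 3478 were lower and 3566 higher in that setting, so these counts also say little about the 48. The 13 genes lower in all 15 alternatives were CCNE2, CHAF1B, GINS1, GINS3, GINS4, GMNN, MCM7, MSH6, POLD3, RFC3, RRM2, TK1 and UHRF1. The 8 higher after scaling were DSCC1, E2F1, FEN1, MCM3, ORC6, RFC4, RPA2 and TYMS. Long-term against DMSO, the same scaling moved the median of all genes from -0.12 to 0.01 and that of the 48 from -0.78 to -0.62, and rescaling without mitochondrially encoded genes gave -0.65.

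**Figure D4:**
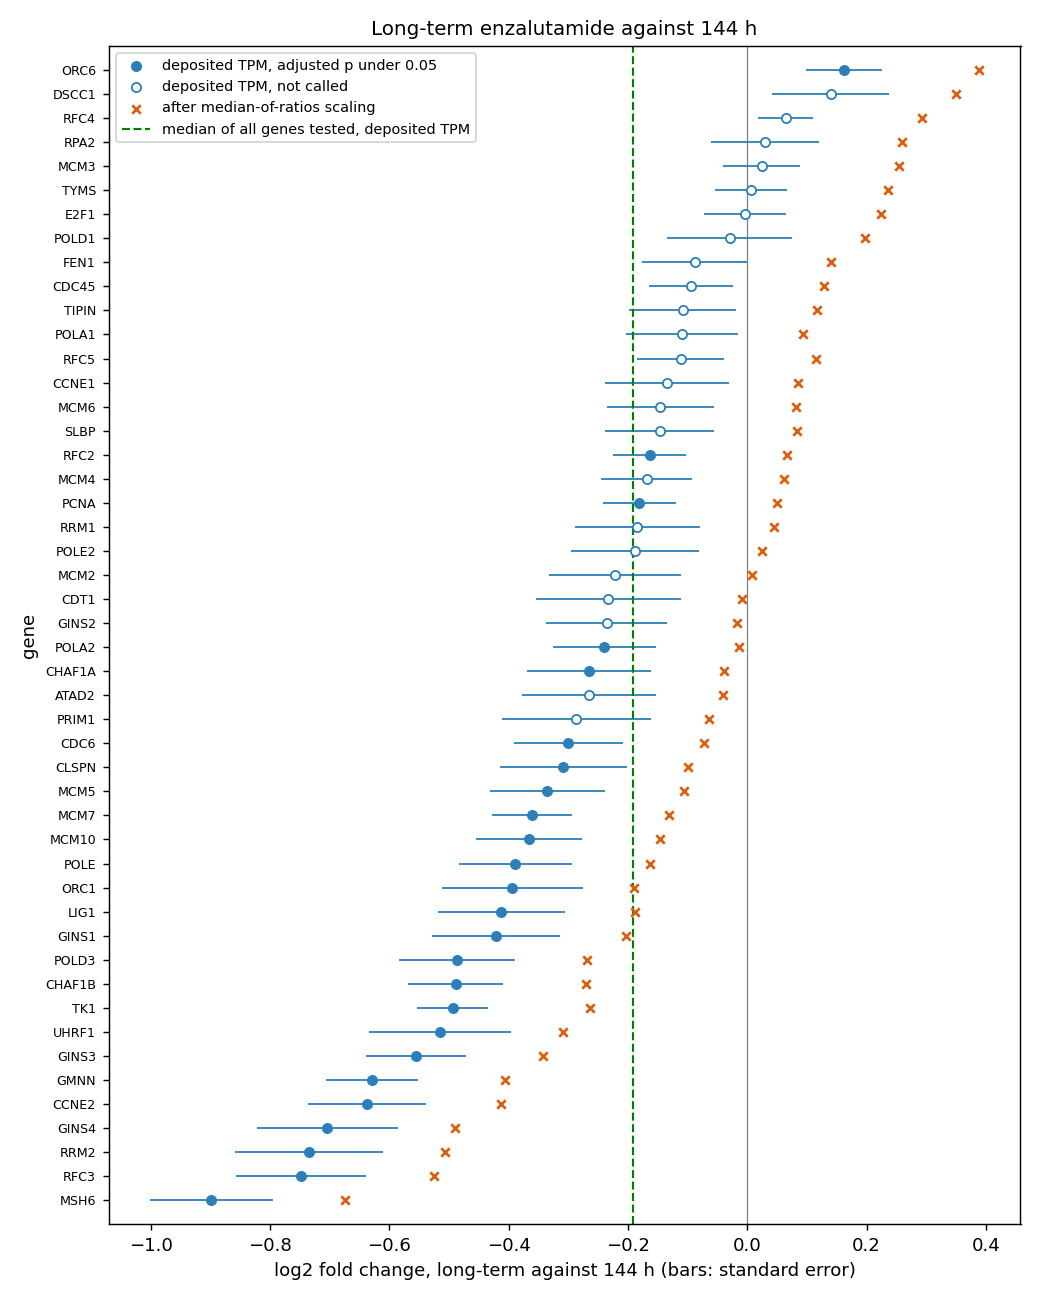
Log2 fold change, long-term against 144 h, of each of the 48 genes (rows, ordered by value); circles are deposited TPM with standard errors, filled where the adjusted p is under 0.05, crosses the values after median-of-ratios scaling, and the dashed line the median of all genes tested (-0.19). Scaling moves all genes to the right, and those from MSH6 to POLD3 stay well below 0.

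Other replication genes were mostly lower as well. Of 47 on a further list, 2 were lower at 24 h and 0 higher (over all genes tested 3.58% and 4.59%), 32 lower and 1 higher at 144 h (16.4% and 26.6%), and 38 lower and 1 higher long-term (33.9% and 18.1%). Both at 24 h were ORC5, an origin recognition subunit (-0.82 ± 0.10, adjusted p = 4.73e-05), and POLE4, a polymerase epsilon subunit (-0.45 ± 0.10, a call lost without DMSO replicate 1). The gene called higher at 144 h and long-term was POLD4, an accessory subunit of polymerase delta, singled out after its values were seen (0.64 ± 0.11 and 0.53 ± 0.11). RECQL4, a helicase, was the only gene of that list called higher long-term against 144 h (0.43 ± 0.07) and was also named after its values were seen.

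Of 19 genes of RB and E2F control, 3 were lower at 24 h and 0 higher, 12 lower and 3 higher at 144 h, and 14 lower and 0 higher long-term, with the same shares over all genes as just given. CDC25A, the phosphatase that activates CDK2, changed by -0.33 ± 0.07 at 24 h, -0.89 ± 0.07 at 144 h and -1.14 ± 0.07 long-term (adjusted p = 0.0083, 6.12e-08 and 1.60e-09). E2F8 and E2F4 were the others at 24 h (-0.43 and -0.31), and the call of E2F8 was lost without 24 h replicate 2 or DMSO replicate 1. MYBL2, a transcription factor of the cell cycle, was at -0.72 ± 0.07 at 144 h. The 3 higher at 144 h, named after their values were seen, were RB1 (0.33) and RBL2 (0.38), which encode the retinoblastoma protein and a relative, and TFDP2 (0.30), a partner of E2F factors. These 3 of 19 are a smaller share than the 26.6% of all genes called higher at 144 h, so the count is no result about the list. The call of RB1 was lost without 144 h replicate 1 or 3 or DMSO replicate 2 or 3, and that of TFDP2 without 144 h replicate 3.

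Genes of G2 and mitosis were lower later. Of 35, at 24 h 0 were lower and 0 higher, at 48 h 5 lower, at 96 h 6 lower and 2 higher, at 144 h 26 lower and long-term 32 lower. The shares of all genes called lower in these groups were 3.58%, 8.08%, 12.7%, 16.4% and 33.9%. The medians of the 35 genes were 0.01, -0.10, -0.01, -0.37 and -0.56. Their summed level was 100.6%, 90.8%, 97.5%, 76.4% and 73.4% of DMSO in those groups, against 88.6%, 86.6%, 77.1%, 68.7% and 57.9% for the 48 replication and S phase genes. The 2 higher at 96 h, CENPF (0.27) and TOP2A (0.28), are a kinetochore protein and a topoisomerase, and 2 of 35 is a smaller share than the 16.5% of all genes called higher there. CENPF lost its call without 96 h replicate 1 or DMSO replicate 2, and TOP2A without 96 h replicate 2 or DMSO replicate 1 or 3. At 144 h KIF20A, a mitotic kinesin, was at -0.35 ± 0.05. Long-term against 144 h, 17 of the 35 were lower and 2 higher, CDK1, the mitotic kinase (0.79 ± 0.13), and UBE2C, a ubiquitin-conjugating enzyme of mitotic exit (0.17). Over all genes 36.8% were lower and 9.23% higher at this step, so the 2 higher are again a smaller share. The call of UBE2C was lost without long-term replicate 1 or 3 or 144 h replicate 2 or 3. These 4 were named after their values were seen, and the difference between the lists was not tested.

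**Figure D5:**
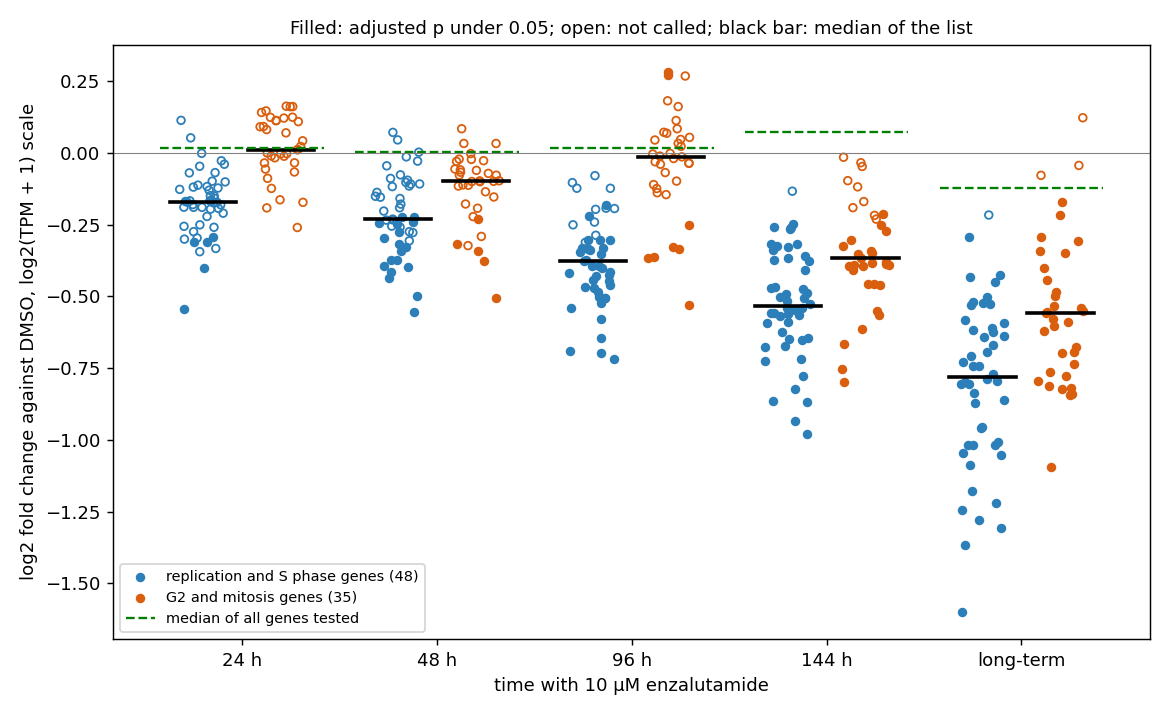
Log2 fold change against DMSO (vertical axis) at each time for the 48 replication and S phase genes and the 35 G2 and mitosis genes; filled points have an adjusted p under 0.05, black bars are list medians and green dashes the median of all genes tested. At 96 h the medians are -0.38 and -0.01, and by 144 h both lists lie below 0.

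The changes can be set beside the promoter words shown at the start for the 40 genes with a matched promoter. At 144 h the median was -0.50 for the 21 genes with an E2F word and -0.56 for the 19 without, and long-term it was -0.80 and -0.71. The split follows exact letters only. CDC45, MCM10 and, on the other strand, CHAF1A hold TTTGGCGG, which differs from the word TTTGGCGC only in its last letter. ORC1 holds ATTGGCGC, which differs only in its first letter. All of these are counted as without, and at 144 h they changed by -0.78, -0.65, -0.26 and -0.62 in that order. Such near words were not counted over the 40 genes. These medians are descriptions, and the difference was not tested.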

How the data were processed

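Gene levels were measured by RNA sequencing in 18 libraries in 6 groups of 3. The authors deposited TPM per gene, and Partek, RSEM and STAR are named in the submitters' processing notes together with the builds hg38 and GRCh38, but not what each did. Library selection was for poly(A) RNA, per the labels' protocols. Every library has nearly the same TPM total, which leaves the read depth unknown and allows no counting intervals.

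Values were taken as log2(TPM + 1), and genes with at least 1 TPM in at least 3 libraries entered the test, for which limma 3.58.1 was run in R 4.3.3. One model held all 18 libraries and 6 group means, with a trend of variance on expression. P-values are two-sided and were adjusted by the method of Benjamini and Hochberg over all 16169 genes tested in each of 7 comparisons. Fold changes are on the log2(TPM + 1) scale, given ± standard error, which understates the change of low genes. The test was run on simulated data with independent normal noise around the DMSO means and fixed shifts in some genes. That setting holds no change in mitochondrial share and no technical replicates, so it is no check on those points. Gene positions came from GENCODE 29 and promoters from RefSeq (GRCh38.p14). Python 3.11.15, numpy 2.4.6, pandas 2.3.3 and matplotlib 3.10.9 were used for the rest.

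The 48 genes, the other lists and the alternatives were chosen with earlier results of these data known. All 48 may be named. Values of every library are given for MCM2, MCM5, CDC6, CDT1, GMNN, PCNA, FEN1, RRM2, TYMS, TK1, E2F1, CCNE1, CCNE2, UHRF1, ATAD2 and CHAF1A, and for the 3 called genes that changed most in each direction of each comparison. From the other lists up to 5 called genes with the smallest adjusted p per comparison could be named. Alternatives were quantile normalization, median-of-ratios scaling, a rescaling that leaves out the 37 mitochondrially encoded genes, a minimum of 5 TPM or no filter, a pseudocount of 0.1, no variance trend, the replicate number as a block, a fit of only both groups compared, and each library left out. For all 60623 genes the deposited mean columns matched the library means within 0.01 TPM, and the authors' fold columns were not used.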

Additional observations from a re-analysis of the deposited data

How the results depend on the processing

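At 24 h, where 6 of the 48 genes were called lower, the count was 3 with no filter, 20 with median-of-ratios scaling, 16 with quantile normalization, 15 after rescaling without mitochondrially encoded genes and 3 with no variance trend, and 2 to 5 with single libraries left out. The count called higher at 24 h went from 0 to 1 with quantile normalization and to 1 with that rescaling. Over all genes tested, the count called lower at 24 h moved too. It was 579 with none of these changes, 989 with median-of-ratios scaling, 845 with quantile normalization and 826 with the rescaling. With no filter it was 619 of 38017 genes, with no variance trend 572, and 399 to 492 with single libraries left out. The count called higher went from 742 to 997 with quantile normalization and 1075 with the rescaling. At 48 h the count called lower was 9 with no filter and 7 to 15 with single libraries left out, and 1 was called higher with quantile normalization. Over all genes, 1306 were lower at 48 h, 1240 with no filter and 843 to 1128 with single libraries left out. With quantile normalization 1918 were higher, against 1517 without it. Leaving out a library gave 30 to 37 lower at 96 h, 42 to 47 at 144 h and 47 to 48 long-term. Over all genes it gave 1430 to 2137, 2169 to 2525 and 4574 to 5944. From 144 h to long-term the count called lower was 13 with median-of-ratios scaling and 13 with quantile normalization, and 16 to 31 with single libraries left out. Over all genes it was 5957 with none of these changes, and 3478, 3496 and 4578 to 6554 in those settings. In that comparison the 1 called higher became 8 with median-of-ratios scaling, 7 with quantile normalization and 6 with the rescaling, and 0 with no filter, with no variance trend, with the replicate block and with a fit of only both groups compared, and 0 to 1 with single libraries left out. Over all genes, the 1493 called higher became 3566, 3308 and 2480 with these scalings. They became 1933 with no filter, 1473 with no variance trend, 1460 with the block and 1095 with the fit of both groups. With single libraries left out, 1220 to 1425 were called higher. There E2F1 changed sign, to 0.22 with median-of-ratios scaling, 0.18 with quantile normalization and 0.12 with the rescaling. In all 16 of the 48 genes changed sign there with median-of-ratios scaling, which moved the median of all genes from -0.19 to 0.00, 10 with quantile normalization and 6 with the rescaling. Of the 16, E2F1 and FEN1 (0.14) were called after that scaling and not before it, and PCNA (0.050) and RFC2 (0.066) before it and not after. Apart from settings that leave out samples, the cause was not tested. With the replicate number as a block, 4, 14, 35, 46, 48, 33 and 24 genes were lower in the 7 comparisons, in the order 24, 48, 96, 144 h and long-term (each with DMSO), then 144 h with 24 h and long-term with 144 h. Over all genes, 537, 1231, 1985, 2604, 5415, 1746 and 5852 were lower in the same order. Libraries of the same number showed no clear shared deviation (correlations from -0.16 to 0.14 over 21 pairs, 3 of them above 0.1). In 42 checks, a library was set against the 3 of the other group in a comparison. The checks reuse the same libraries, and in 18 of them the library was closest to its own number. The labels do not say whether the numbers pair libraries, and these correlations do not settle it. Depth is unknown, and the smallest differences that these libraries could show were not estimated.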
